A study of Homo sapiens with 4 samples.

Results

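Ribosome biogenesis and RNA polymerase I genes were examined in DU145, a human prostate carcinoma cell line whose growth does not need androgen, after exposure to compounds described as inhibitors of PSF, the RNA-binding protein encoded by SFPQ. The set was a list of 40 gene symbols, and its members were the probe sets that carry one of these symbols in the platform annotation. Of the 40 genes, 34 were measured, each by 1 probe set, among 17687 named genes on the array. GNL3, NOP56, DKC1, WDR43, BOP1 and PPAN were not analysed here. The groups were 5 µM No.10-3, 0.5 µM C-30, 2 µM C-30 and vehicle, each for 48 h and each with 1 array. With no replicates, no error, SD or p-value can be attached to a difference, and the text is a description of the 4 arrays. The doses of No.10-3 and C-30 differ, and their values are set side by side without a comparison between the compounds.

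Ribosomes are built in the nucleolus, where RNA polymerase I transcribes the long precursor of most ribosomal RNA. Small nucleolar ribonucleoproteins (snoRNPs) guide chemical modification of that precursor, and many assembly factors fold, cleave and trim it into the small and large subunits. The genes of this machinery are widely expressed in growing cells and are known to respond to the transcription factor MYC.

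Signals are log2 values, and a difference is the log2 signal of the treated array minus that of vehicle. All treated arrays are set against the same vehicle array. Background is taken as the level that 95% of the 612 negative control probe sets do not exceed, which was 7.06 with No.10-3, 7.11 with 0.5 µM C-30, 7.15 with 2 µM C-30 and 7.32 with vehicle. Pearson correlations between arrays lay between 0.979 and 0.987 across the named genes. The epithelial markers KRT8, KRT18, KRT19 and EPCAM were above background on all 4 arrays, and CDH1 was on none. Of 7 measured leukocyte, fibroblast and endothelial markers, none was above background on any array. SFPQ itself differed from vehicle by 0.02, 0.02 and 0.09 with No.10-3, 0.5 µM C-30 and 2 µM C-30. MYC, an activator of this gene set, had signals of 11.00 with No.10-3, 10.58 with 0.5 µM C-30 and 10.78 with 2 µM C-30, against 10.77 with vehicle. It stood within 0.23 of vehicle on each treated array.

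Of the 34 measured members, 26 were above background on all 4 arrays. ESF1, POLR1B, UTP15, RRP12 and NOP2 were under it on every array, so their differences are within background. RRP9 was under it with vehicle, WDR12 with 2 µM C-30, and DDX10 with 0.5 µM C-30 and with vehicle, so the differences that use those arrays are inexact. The range over the 4 arrays was under 0.5 for 12 of 34 members (35.3%, beside 27.8% of 9630 genes past the same floor as in the counts that follow) and 1 or more for 4 (11.8%, beside 22.1%), namely ESF1, WDR12, POLR1A and NPM1. These 4 were singled out after their values were seen.

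**Figure D1:**
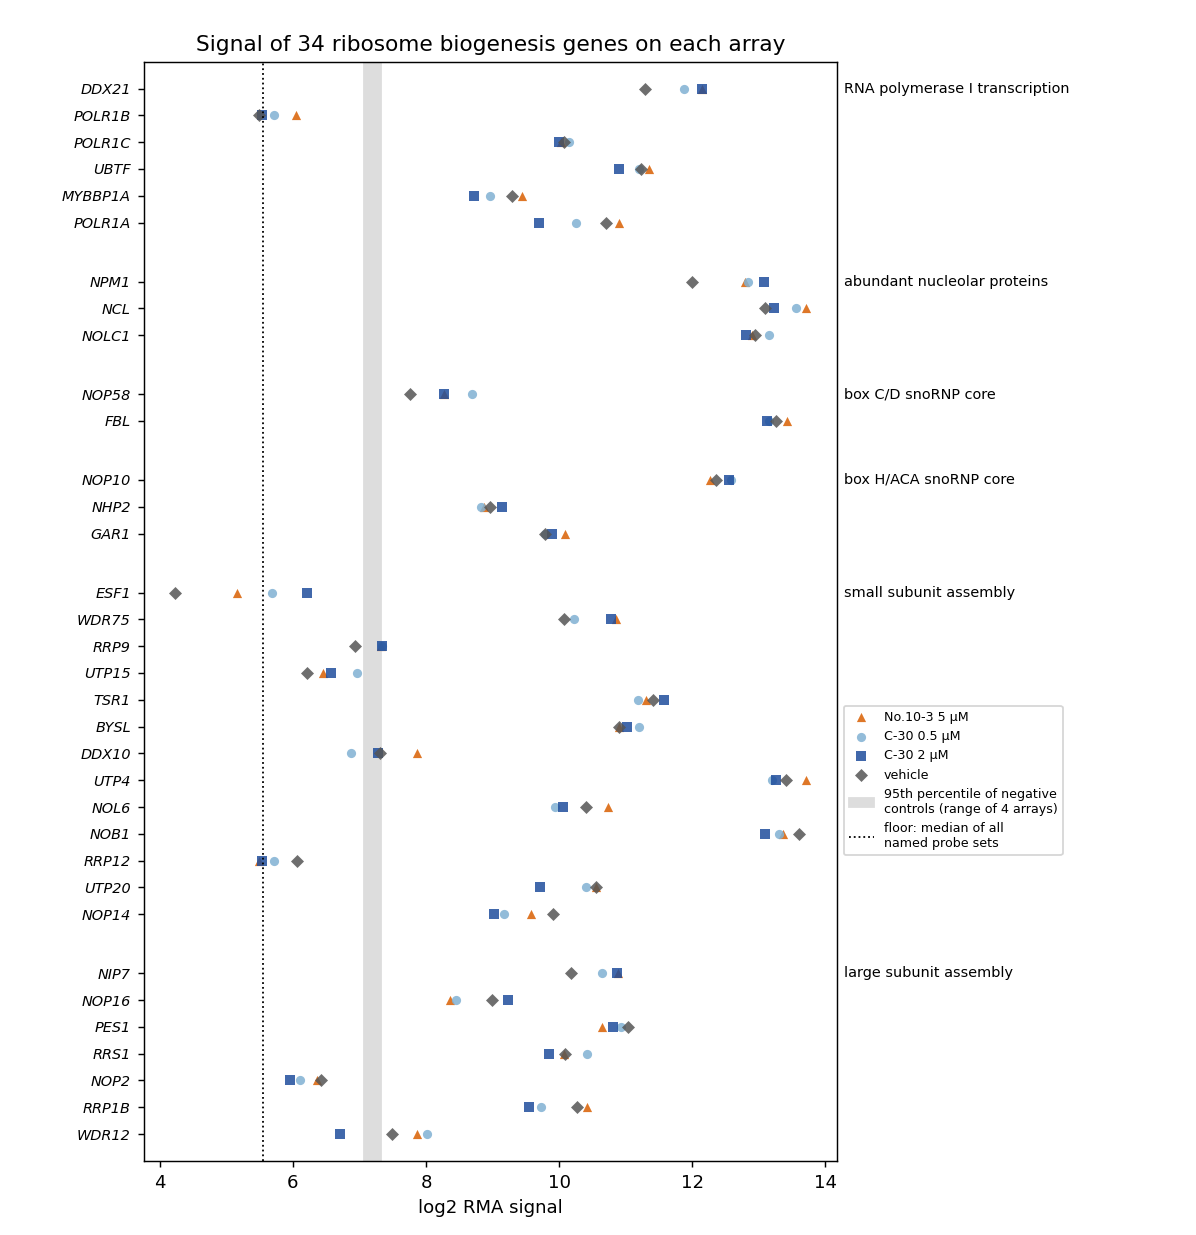
Log2 signal (horizontal axis) of the 34 measured genes, grouped by role, with 1 symbol for each array. The grey band spans the background level of the 4 arrays, and 26 genes lie above it on all 4 arrays, while ESF1, POLR1B, UTP15, RRP12 and NOP2 lie under it on each.

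The first question was whether the genes as a group stood higher or lower in treated cells. With No.10-3, 19 of 33 members with a signal past a low floor lay above vehicle, beside 54% of all genes, and none passed 2-fold. With C-30, the members spread to both sides, and the higher dose left NPM1 and ESF1, the last within background, at least 2-fold higher and POLR1A just 2-fold lower. In RNA from many cells, fewer cells that express a gene and less RNA per cell cannot be told apart. A gene entered a count when the higher of its 2 signals reached 5.56, which is the median signal of the named probe sets, and was called at a log2 difference of at least 1, which is 2-fold. This floor lies below the background level.

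With No.10-3, 0 of 33 members past the floor were called higher and 0 lower, beside 4.36% of 9219 genes called higher and 1.32% called lower. With 0.5 µM C-30, 1 of 34 was called higher and 0 lower, beside 3.4% and 2.77% of 9267 genes. With 2 µM C-30, 2 of 33 were called higher and 1 lower, beside 4.67% and 6.15% of 9319 genes. These counts of members are near the share among all genes or below it. Among the genes past 2-fold the side depended on scaling: with No.10-3, 76.7% were higher, against 61.4% after centring each array (on its median over genes that pass the floor), and with 2 µM C-30 43.2% were higher, against 55.4% after centring.

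The median difference of the members was 0.16 with No.10-3, -0.02 with 0.5 µM C-30 and -0.08 with 2 µM C-30, beside medians over all genes past the floor of 0.05, -0.04 and -0.05. The sign of the C-30 medians depended on the scaling. With 0.5 µM C-30 the median turned to 0.07 after quantile normalization or lowess correction and to 0.01 after centring. With 2 µM C-30 it turned to 0.06 after quantile normalization and 0.03 after lowess correction, and was -0.01 after centring. The No.10-3 median stayed above 0, at 0.09 after quantile normalization, 0.10 after lowess correction and 0.07 after centring. With No.10-3 the medians over all genes were then -0.03, -0.01 and -0.04. With C-30 those over all genes lay between -0.02 and 0.02 under these scalings. The middle 50% of members ran between -0.05 and 0.39 with No.10-3, between -0.32 and 0.39 with 0.5 µM C-30, and between -0.46 and 0.24 with 2 µM C-30. For all genes these spans were -0.26 to 0.38, -0.38 to 0.32 and -0.45 to 0.36. The spans of members and of all genes overlapped widely on each treated array, and with No.10-3 the lower quartile of the members was nearer to 0.

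A smaller difference of at least 0.5 was reached upwards by 8 members and downwards by 2 with No.10-3, beside 18.7% and 11.4% of all genes. The members reached it in 6 and 3 cases with 0.5 µM C-30 (all genes 15.6% and 17.7%). With 2 µM C-30 it was reached upwards by 5 members and downwards by 8 (all genes 18.4% and 22.5%).

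**Figure D2:**
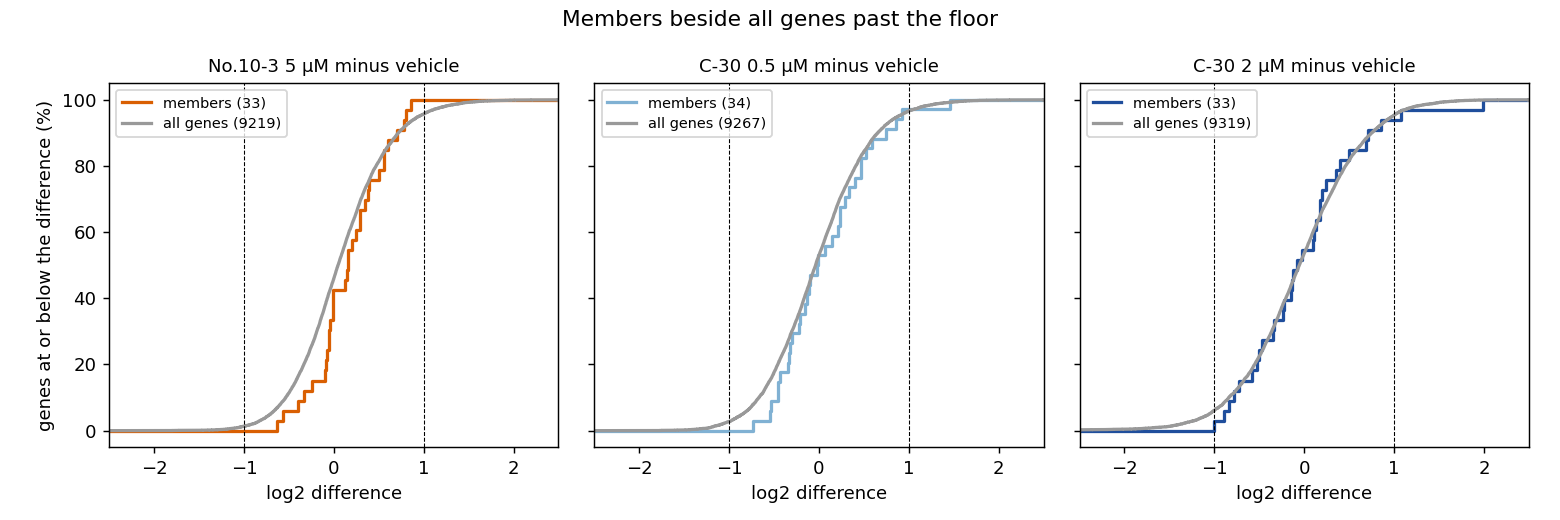
Cumulative share of genes (vertical axis, percent) at or below each log2 difference from vehicle (horizontal axis), for the members (coloured) and for all genes past the floor (grey), with dashed lines at 2-fold. With both doses of C-30 the coloured steps follow the grey curve closely, and with No.10-3 no member lies past either dashed line.

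Among the genes of RNA polymerase I transcription, POLR1A and MYBBP1A stood lower with C-30, DDX21 stood higher on each treated array, and POLR1C stayed close to vehicle. POLR1A, which encodes the largest catalytic subunit (chromosome 2, 86020216 to 86105886 in GRCh38.p14), had signals of 10.90 with No.10-3, 10.25 with 0.5 µM C-30 and 9.70 with 2 µM C-30, against 10.71 with vehicle. Its difference was 0.20 with No.10-3, -0.46 with 0.5 µM C-30 and -1.003 with 2 µM C-30. It was the only member called lower against vehicle, and it missed 2-fold after quantile normalization (-0.87), a lowess correction (-0.88) and centring (-0.93). POLR1C, a subunit shared with RNA polymerase III, had 10.02, 10.14 and 10.00 on the treated arrays in the same order, against 10.07 with vehicle, a range of 0.15. POLR1B, the other large catalytic subunit, had 6.05, 5.72 and 5.53, against 5.49 with vehicle, and lay within background.

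UBTF, the factor that holds ribosomal DNA open for the polymerase, had 11.35 with No.10-3, 11.20 with 0.5 µM C-30 and 10.90 with 2 µM C-30, against 11.23 with vehicle. MYBBP1A, a nucleolar protein that binds transcription regulators and takes part in ribosomal RNA synthesis, was lower by 0.58 with 2 µM C-30, with signals of 9.45, 8.95 and 8.71 against 9.29 with vehicle. DDX21 ran the other way. This RNA helicase, which works in both RNA polymerase I transcription and ribosomal RNA processing, had 12.14, 11.88 and 12.15, against 11.29 with vehicle, and was thus higher on all treated arrays by 0.85, 0.59 and 0.86. RRN3, the initiation factor of RNA polymerase I and not a member, had 9.72, 9.87 and 10.02, against 9.42 with vehicle.

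NPM1 was the member called higher that lay clearly above background. It encodes nucleophosmin, an abundant nucleolar chaperone (chromosome 5, 171387116 to 171410900). NPM1 had 12.79 with No.10-3, 12.84 with 0.5 µM C-30 and 13.07 with 2 µM C-30, against 11.99 with vehicle. The differences were 0.80, 0.85 and 1.08, of which the last, 2.12-fold, was called and stayed past 2-fold under the 3 other scalings (1.15 to 1.27). NPM1 has many processed pseudogenes, and which copies the probes read was not tested. NCL, the gene of nucleolin, had 13.70, 13.56 and 13.23, against 13.10 with vehicle, with differences of 0.61, 0.47 and 0.13. NOLC1, which encodes a chaperone of snoRNPs, stayed within 0.22 of vehicle on each treated array.

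The core proteins of snoRNPs differed little from vehicle, apart from NOP58. This core protein of the box C/D class, which directs methylation of ribose, had 8.27 with No.10-3, 8.69 with 0.5 µM C-30 and 8.26 with 2 µM C-30, against 7.76 with vehicle. Its differences of 0.51, 0.92 and 0.50 were all below 2-fold. FBL, the methyltransferase of the same particles, had 13.42, 13.16 and 13.13, against 13.26 with vehicle. In the box H/ACA class, which directs pseudouridylation, NHP2, NOP10 and GAR1 stayed between -0.13 and 0.30 of vehicle over the treated arrays.

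**Figure D3:**
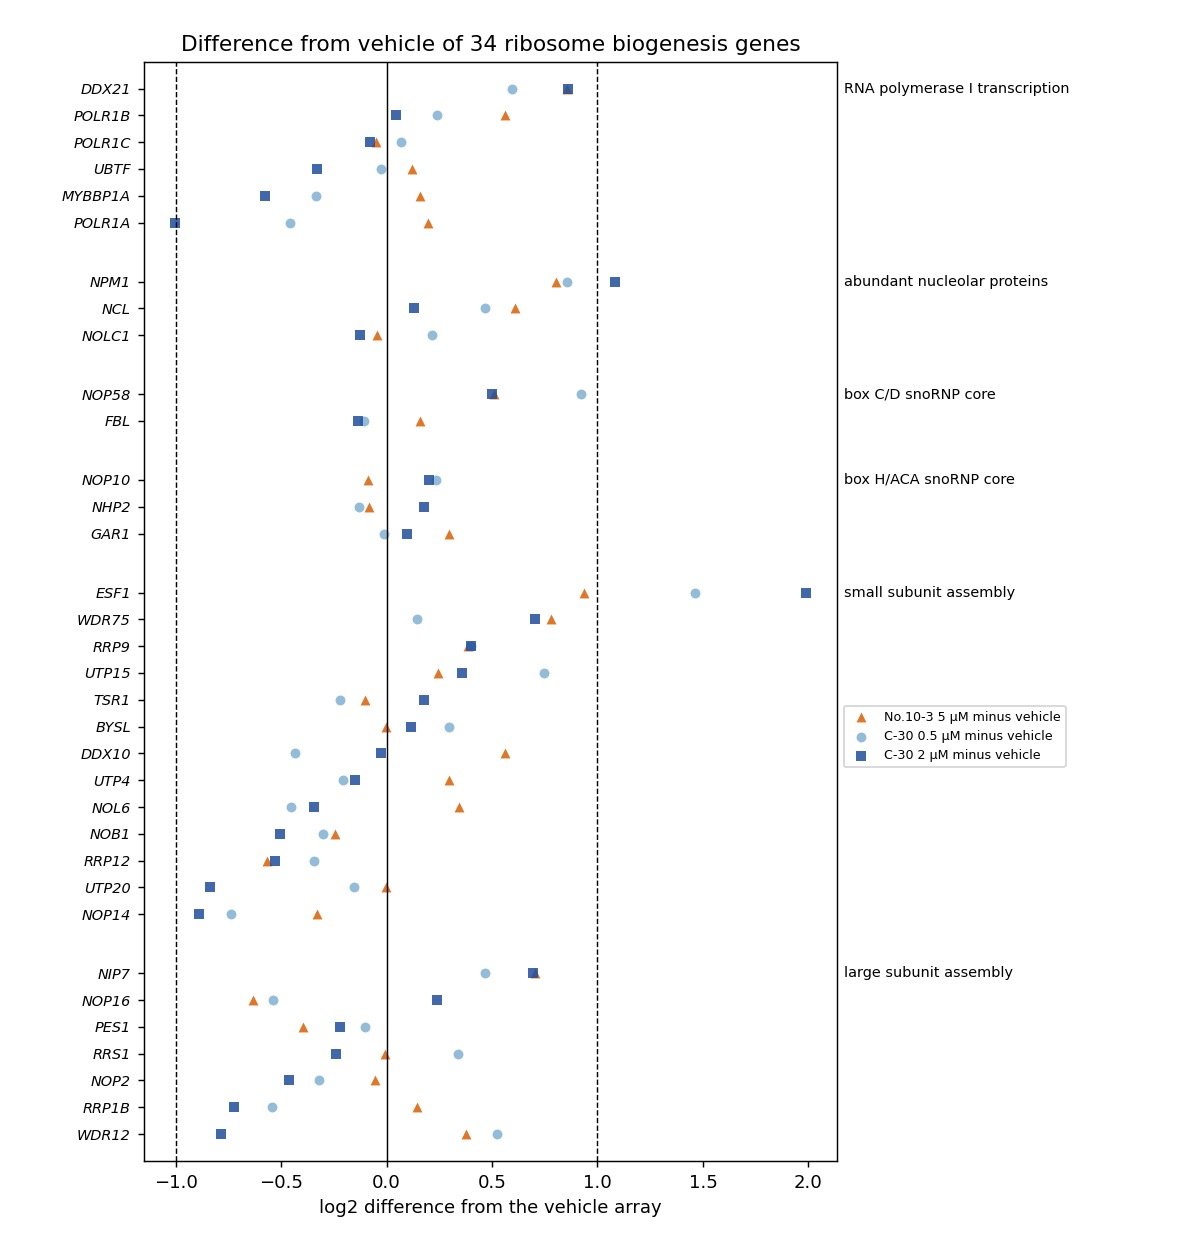
Log2 difference from the vehicle array (horizontal axis) of the 34 measured genes, grouped by role and ordered in each role by the difference with 2 µM C-30, with 1 symbol for each treated array and dashed lines at 2-fold. Only ESF1 (at 1.46 and 1.99), NPM1 (at 1.08) and POLR1A (at -1.003) reach a dashed line, all with C-30.

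Small subunit assembly genes went both ways. ESF1, a nucleolar factor needed for small subunit ribosomal RNA processing in yeast, had the largest differences of any member, but all 4 of its signals were within background: 5.17 with No.10-3, 5.69 with 0.5 µM C-30 and 6.22 with 2 µM C-30, against 4.23 with vehicle. The differences of 1.46 and 1.99 with the lower and higher dose of C-30 were past 2-fold. With No.10-3 neither signal reached the floor, and the difference was 0.94. WDR75, a subunit of the early assembly complex that joins the precursor as it is transcribed, had 10.85, 10.22 and 10.78, against 10.08 with vehicle. Its signal with 0.5 µM C-30 was near vehicle, and the other treated arrays were higher by 0.78 and 0.71.

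NOP14, a component of the small subunit processome, had 9.58 with No.10-3, 9.17 with 0.5 µM C-30 and 9.02 with 2 µM C-30, against 9.91 with vehicle, and so was lower on each treated array by 0.33, 0.74 and 0.89. UTP20, a very large scaffold of the same processome, had 10.55, 10.40 and 9.71, against 10.55 with vehicle, with differences of 0.00, -0.16 and -0.84. Its lower signal was seen with 2 µM C-30 and hardly elsewhere. NOB1, the nuclease that makes the last cut of small subunit ribosomal RNA, had 13.36, 13.30 and 13.10, against 13.60 with vehicle. NOL6 had 10.74, 9.94 and 10.06, against 10.40 with vehicle, above vehicle with No.10-3 and below it with C-30. RRP12, which takes part in export of the subunit, differed by -0.57, -0.35 and -0.53, within background.

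Of the other small subunit genes, UTP4 had 13.70, 13.20 and 13.26 on the treated arrays, against 13.40 with vehicle. UTP15, a partner of UTP4 and WDR75 in the same early complex, differed by 0.24, 0.75 and 0.36 within background. The helicase gene DDX10 differed by 0.56, -0.44 and -0.03, and RRP9, a protein of the U3 snoRNP, by 0.39, 0.40 and 0.40. BYSL and TSR1, which act late on the small subunit, stayed between -0.22 and 0.29 of vehicle.

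Promoters were searched because MYC binds the sequence CACGTG, and the members that hold it upstream are shown with that motif in capitals. RefSeq windows of GRCh38.p14 were used, cut to the 250 bases before the annotated start, and 29 of the 34 measured members had one. CACGTG, which reads the same on both strands, was found for 3 of 29 members (10.3%), beside 7.7% of 14250 windows of genes on the array. The 3 were UTP20 (chr12:101279855-101280104, plus strand), UTP4 (chr16:69132399-69132648, plus strand) and NOP10 (chr15:34343137-34343386, minus strand), printed 5′ to 3′.
UTP20: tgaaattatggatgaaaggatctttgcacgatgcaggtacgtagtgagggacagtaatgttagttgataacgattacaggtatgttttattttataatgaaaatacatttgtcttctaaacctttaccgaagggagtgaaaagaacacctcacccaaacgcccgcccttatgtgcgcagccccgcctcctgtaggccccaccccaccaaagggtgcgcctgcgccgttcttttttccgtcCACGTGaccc
UTP4: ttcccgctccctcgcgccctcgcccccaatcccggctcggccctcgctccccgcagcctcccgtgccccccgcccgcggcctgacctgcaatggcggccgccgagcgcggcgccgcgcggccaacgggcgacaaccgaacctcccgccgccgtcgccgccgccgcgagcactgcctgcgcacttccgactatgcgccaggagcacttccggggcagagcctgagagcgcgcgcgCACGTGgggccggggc
NOP10: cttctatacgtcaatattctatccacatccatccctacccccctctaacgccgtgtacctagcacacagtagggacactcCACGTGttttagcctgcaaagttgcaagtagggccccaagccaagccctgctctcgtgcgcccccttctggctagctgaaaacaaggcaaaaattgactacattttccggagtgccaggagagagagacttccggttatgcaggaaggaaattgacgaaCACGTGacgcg
In UTP20 the motif began 10 bases before the start and in UTP4 16 bases before it, and NOP10 had 2 copies, at 170 and 11 bases. With 2 µM C-30 the differences had either sign, at -0.84 for UTP20, -0.15 for UTP4 and 0.20 for NOP10. On both strands, GGGCGG was found for 21 members (72.4%, against 57% of all windows), CCAAT for 12 (41.4% against 34.6%) and TATAAA for 1 (3.45% against 8.99%).

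For the large subunit, WDR12 differed most between the doses of C-30. WDR12, which works in 1 complex with PES1 and BOP1, had 7.86 with No.10-3, 8.01 with 0.5 µM C-30 and 6.70 with 2 µM C-30, against 7.48 with vehicle. 2 µM C-30 was lower than 0.5 µM C-30 by 1.31, although the signal with the higher dose was under background. PES1 had 10.64, 10.93 and 10.81, against 11.03 with vehicle, and was thus within 0.39 of vehicle on each treated array. NIP7, a late assembly factor, had 10.88, 10.64 and 10.87, against 10.17 with vehicle, higher on all treated arrays by 0.70, 0.46 and 0.69.

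RRP1B, a nucleolar protein that also binds chromatin, had 10.41 with No.10-3, 9.73 with 0.5 µM C-30 and 9.55 with 2 µM C-30, against 10.27 with vehicle. Its 2 signals with C-30 were lower by 0.54 and 0.72, and that with No.10-3 was close to vehicle. NOP16 had 8.35, 8.45 and 9.23, against 8.99 with vehicle, lower with No.10-3 and with 0.5 µM C-30 and not with 2 µM. RRS1 differed by -0.01, 0.34 and -0.24. NOP2, which encodes a methyltransferase of large subunit ribosomal RNA, differed by -0.05, -0.32 and -0.46 within background.

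C-30 was used at more than 1 dose, so the order of signals could be followed. Of 34 members, 11 were lower with 0.5 µM than with vehicle and lower again with 2 µM, which is 32.4%, beside 25.8% of 9506 genes. They were POLR1A, UBTF, MYBBP1A, FBL, UTP20, NOP14, RRP12, NOB1, PES1, NOP2 and RRP1B. Another 5 were higher at each step, namely DDX21, NPM1, WDR75, ESF1 and NIP7, which is 14.7% beside 19.6% of all genes. Both shares lie near those of all genes, and they moved with the scaling. After quantile normalization, and likewise after centring, FBL and UBTF left the lower set, and NOP10, GAR1 and RRP9 joined the higher set.

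Between the doses, 2 µM C-30 left 0 of 34 members called higher and 1 lower, WDR12, against 0.5 µM C-30, beside 1.39% and 2.18% of 9282 genes. The median difference was -0.14 over the members and -0.03 over all genes, and 22 of 34 members lay below 0, beside 53.4% of all genes. POLR1A was lower by 0.54, UTP20 by 0.68 and RRS1 by 0.58 with the higher dose, and NOP16 was higher by 0.77, WDR75 by 0.56 and ESF1 by 0.52.

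**Figure D4:**
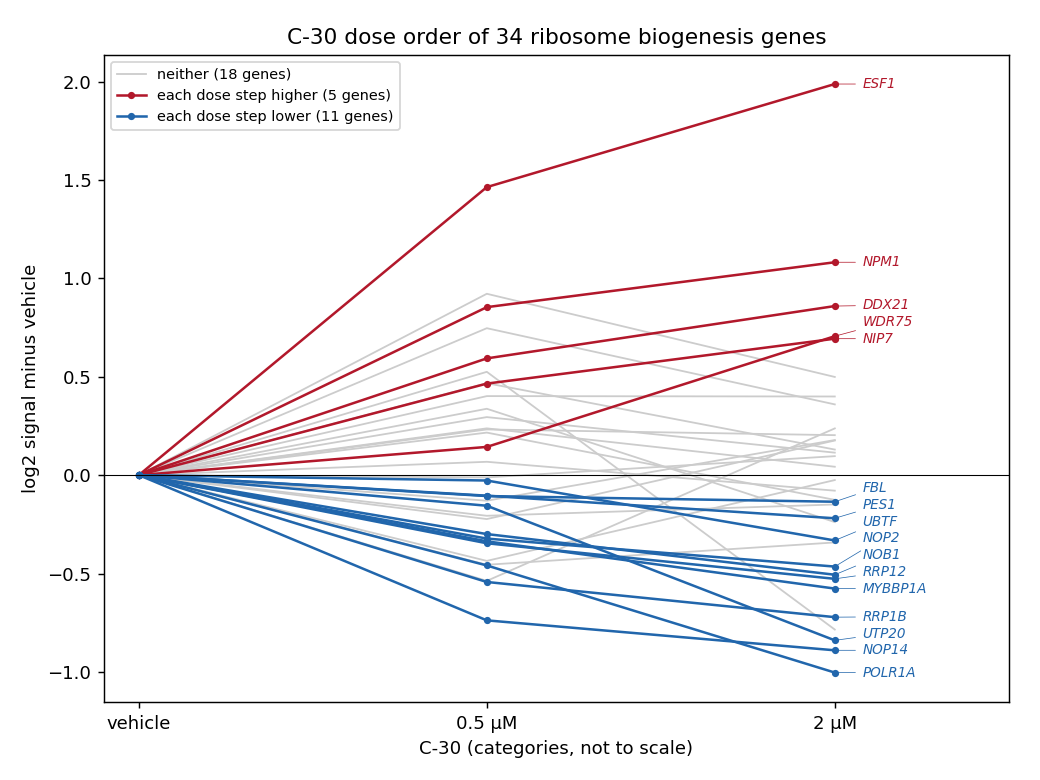
Log2 signal minus vehicle (vertical axis) of the 34 measured genes with vehicle, 0.5 µM C-30 and 2 µM C-30 (horizontal axis, spaced as categories). Red lines are the 5 genes higher at each step, blue lines the 11 genes lower at each step, and grey lines the other 18.

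Genes of the same machinery outside the list were then counted over 5 further lists, for RNA polymerase I, small and large subunit assembly, snoRNP assembly and the nuclear exosome that trims ribosomal RNA, with 111 measured genes in all. With No.10-3, 8 of 106 past the floor were called higher and 1 lower. With C-30, 12 higher and 2 lower of 107 were called at 0.5 µM, and 8 higher and 4 lower of 107 at 2 µM. Their medians were 0.10, 0.11 and 0.07, beside 0.047, -0.038 and -0.055 over all genes past the floor. In percent, 7.55, 11.2 and 7.48 of the genes in the 5 lists were called higher, beside 4.36%, 3.4% and 4.67% of all genes.

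Many of these calls rest on low signals. Of the genes called higher, 5 of 8, 6 of 12 and 5 of 8 had a vehicle signal within background, as had 251 of 402, 195 of 315 and 281 of 435 of all genes called higher. Among genes above background on both arrays, 3 of 70, 6 of 69 and 3 of 69 were called higher, which is 4.29%, 8.7% and 4.35%, beside 2.86%, 2.31% and 3.02% of all genes. With the same filter the medians of the 5 lists were 0.04, 0.08 and 0.004, beside 0.03, -0.09 and -0.12 over all genes.

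Of the single genes, RRP15, a large subunit factor, was higher by 1.71 with No.10-3, 1.13 with 0.5 µM C-30 and 1.62 with 2 µM C-30, from a vehicle signal of 7.01 under background. BRIX1, another large subunit factor, had 11.62 with 0.5 µM C-30 and 11.91 with 2 µM C-30, against 10.54 with vehicle. NMD3, the export adaptor of the large subunit, had 9.15 with No.10-3 and 9.06 with 0.5 µM C-30, against 7.63 with vehicle. HEATR1, a scaffold of the small subunit processome, had 11.91 with No.10-3, against 10.73 with vehicle. Lower than vehicle was NAT10, the acetyltransferase of small subunit ribosomal RNA, with 10.15 and 10.24 in C-30 at 0.5 and 2 µM against 11.46. IMP4, a U3 snoRNP protein, had 7.58 in 2 µM C-30 against 9.00. NOL9, from the large subunit list, had 9.03 with 0.5 µM C-30, against 10.47 with vehicle. RUVBL2, from the snoRNP assembly list, had 11.17 with 2 µM C-30, against 12.17 with vehicle. TTF1, from the RNA polymerase I list, was lower by 1.17 with No.10-3, within background. POLR2E, a subunit shared by the nuclear RNA polymerases, had 10.94 with 2 µM C-30, against 12.08 with vehicle.

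The 45 measured genes of cytosolic ribosomal proteins, the products that the assembly factors work on, had medians of 0.00, 0.23 and 0.01. With 0.5 µM C-30, 36 of 45 lay above vehicle, beside 46.9% of all genes, and 16 of the 34 assembly and polymerase members did. With 2 µM C-30 against 0.5 µM, 40 of the 45 lay below 0, beside 53.4% of all genes. Both counts use the same 0.5 µM array. With 2 µM C-30, 23 of the 45 lay above vehicle, beside 46.4% of all genes. Of these 45 genes only RPL14, at 1.04 with No.10-3, and RPS15, at -1.25 with 2 µM C-30, were past 2-fold against vehicle.

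**Figure D5:**
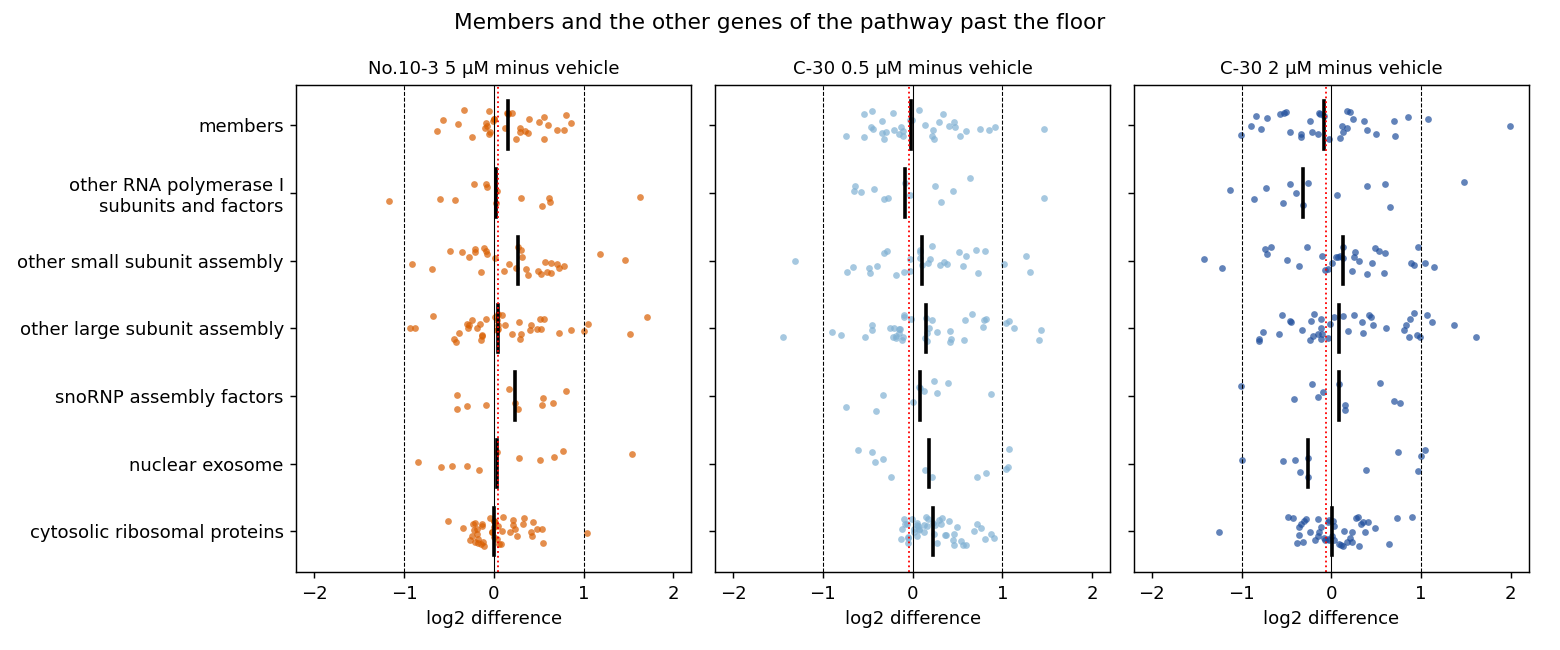
Log2 difference from vehicle (horizontal axis) of each gene past the floor, for the members, the 5 further lists and the cytosolic ribosomal proteins, with 1 panel for each treated array. Black bars are the list medians, the red dotted line is the median of all genes past the floor, and dashed lines mark 2-fold. Dots have a random vertical offset for legibility.

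Position and size of the genes were compared as features the list did not use. UTP4, NIP7 and NOB1 lie within 1 Mb on chromosome 16, with a gap of 170.8 kb between UTP4 and NIP7 and 398.8 kb between NIP7 and NOB1. With 2 µM C-30 their differences had either sign, at -0.15, 0.69 and -0.51 in this order. NOP58 and WDR12 lie 570.6 kb apart on chromosome 2 and differed by 0.50 and -0.78. Across the members, the Spearman correlation of the difference with genomic span was 0.16 with No.10-3, -0.08 with 0.5 µM C-30 and -0.25 with 2 µM C-30 (33, 34 and 33 genes). Over all genes past the floor it was 0.18, 0.10 and 0.07. These are correlations across genes on arrays that share the vehicle array, genes are not replicates, and no test is given.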

How the data were processed

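Biotin labelling of total RNA used a kit for whole transcripts (labels' protocols). The deposited values are log2 signals per probe set, and the submitters' processing notes name RMA and Affymetrix Expression Console 1.3.0. The log base was inferred from the values, which reach 19.93, above the span of scanner readings, so a step that rescaled them may have come before and a fold holds on this scale only. Their genome build and annotation: not given in the sources used here. RMA is meant to put arrays on 1 distribution, so a change shared by most genes would not be seen reliably. The deposited signals per gene were not on exactly 1 distribution. After a further quantile normalization, the share higher among genes past 2-fold with 2 µM C-30 went from 43.2% to 52.3%.

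Of 24351 probe sets, 17709 had 1 gene symbol, 0 had several and 6642 had none. All 17709 matched a current symbol by Entrez identifier and gave 17687 genes, with probe sets of a gene averaged. Coordinates come from RefSeq, GRCh38.p14. Differences were taken between 2 arrays, with no test, and set beside all genes past the floor of 5.56. Any member could be named. Of other pathway genes, only those past 2-fold against vehicle could be, up to 3 each way per list and comparison, besides MYC and RRN3. Members and lists were chosen with earlier results of these data known. Alternatives were 1.5-fold, a floor at the 75th percentile (7.90), no floor, genes above background on both arrays, quantile normalization, lowess (fraction 0.3), centring, the brightest probe set and the series table, which differed by at most 5e-05. The counting was run on simulated data with differences set far past the threshold. That run checks the code and cannot show how reliable a call is in these data. Precision is limited by the number of arrays. The tools were statsmodels 0.14.6, scipy 1.17.1, pandas 2.3.3 and numpy 2.4.6 under Python 3.11.15, with figures by matplotlib 3.10.9. Promoters of members without an entry (NOLC1, NOP58, RRP12, RRS1 and RRP1B) were not analysed here.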

Additional observations from a re-analysis of the deposited data

How the results depend on the processing

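At 1.5-fold, 5 of 33 members were called higher and 1 lower with No.10-3, beside 14.8% and 8.34% of all genes past the floor. With 0.5 µM C-30 it was 5 and 1 of 34, beside 12.2% and 13.4%. With 2 µM C-30 it was 5 and 5 of 33, beside 15.1% and 18.5%. For 2 µM C-30 against 0.5 µM it was 1 and 2 of 34, beside 7.89% and 9.92%. These counts are near the share among all genes or below it. With a floor at the 75th percentile, or with genes above background on both arrays, 0 of 27 members were called higher with 0.5 µM C-30. With 2 µM C-30 it was 1 of 26, and ESF1 was left out in each case. Of all genes, 3.27% and 2.31% were called higher under these filters with 0.5 µM C-30, and 4.38% and 3.02% with 2 µM C-30. The filter on background also left 0 of 27 called lower between the doses of C-30, beside 1.36% of all genes, because WDR12 was left out. After quantile normalization, lowess correction or centring, 0 of 33 members were lower past 2-fold with 2 µM C-30, since POLR1A lay close to the threshold. Of all genes, 5.21%, 5.32% and 4.75% were lower in this order. Quantile normalization and centring, chosen for the dose order after seeing the data, each put 8 members higher at each step of C-30. This was 23.5% of members, beside 22.1% of all genes after quantile normalization and 22.7% after centring. The other 90 counts and medians stayed within 1.5 times, or within a robust SD (0.126 to 0.271). That SD was taken over the differences of the 63 ERCC probe sets between the 2 arrays compared, and these probe sets lie mostly under background. It is a wide limit, since the member median with 2 µM C-30 stayed within it although it turned from -0.08 to 0.06 after quantile normalization. Among these 90, the members called higher with 2 µM C-30 went from 2 to 3 of 33 after lowess correction, beside 5.42% of all genes. DDX21 then reached 1.006, beside 0.859 on the deposited scale. Under the 3 scalings, differences turned their sign for UBTF, FBL and GAR1 with 0.5 µM C-30, for POLR1C, NOLC1, FBL, UTP4 and DDX10 with 2 µM C-30, and for FBL, NOP10 and RRP9 between the doses. No paired analysis was possible because each condition has 1 array and the labels give no replicate numbers. With 1 array per condition the spread between cultures is unknown.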
